A study of Solanum lycopersicum with 18 samples.

Results

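The 9 genes described here act in the sugar and starch metabolism of tomato fruit, and they were chosen by name. They are *LIN5* (Solyc09g010080), *LIN6* (Solyc10g083290), a vacuolar invertase (Solyc03g083910), an invertase inhibitor (Solyc12g099200), *SUS1* (Solyc12g009300), *SUS3* (Solyc07g042550), *SPS* (Solyc07g007790), *AgpL1* (Solyc01g109790) and *AgpS1* (Solyc07g056140). Their m6A peaks are all the entries of 9 deposited peak lists that overlap 1 of these genes, which are 41 of 105726 entries and 6 of 12119 merged regions. Of the 9 genes, 5 had a peak in at least 1 list, and 11176 genes in all did. The lists do not give the number of all annotated genes, so no share over all genes stands beside this count. The m6A-seq libraries came from pericarp of greenhouse-grown tomato (*Solanum lycopersicum* cv. Ailsa Craig), with 3 replicates of wild-type fruit at 39 days post-anthesis (DPA, mature green), wild-type fruit at 42 DPA (breaker, when ripening becomes visible) and Cnr fruit at 42 DPA. Cnr (Colorless non-ripening) is a natural epimutant in the same cultivar whose fruit does not ripen, so 42 DPA in Cnr is an age and not a ripening stage. No transgene or treatment was used in any group. Poly(A) RNA was fragmented and immunoprecipitated with an antibody against m6A, and each immunoprecipitated (IP) library was compared with its own input library of unselected fragments. Each RNA sample was mixed from many fruits, so the replicates are pools and not single fruits.

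Imported sucrose is split in tomato fruit by invertases, which release glucose and fructose, or by sucrose synthases, which release fructose and a nucleotide sugar. *LIN5* and *LIN6* act in the cell wall, the vacuolar enzyme acts in the vacuole, and inhibitor proteins bind and restrain invertases. Sucrose-phosphate synthase works in the other direction and makes the precursor of sucrose. ADP-glucose pyrophosphorylase, built of large (*AgpL1*) and small (*AgpS1*) subunits, makes the substrate of starch synthesis, and the starch of green tomato fruit is broken down as the fruit ripens. N6-methyladenosine (m6A) is a methyl mark on adenosines within mRNA, found mostly around stop codons and in the 3′ UTR, that can affect the stability and translation of a transcript.

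The value reported for a peak is its fold enrichment at the summit, the number of IP fragments over the local background plus 1 on both sides, as the peak caller gave it. The IP fragments and the background were recovered from the enrichment and the p-value. The background is read from the input library around the summit, but it cannot fall under a floor that was 44.6 to 51.1 fragments in the 9 lists. Both are given below as multiples of the floor of their own list, as IP signal and input level. An input level of 1 means only that the input was at or under the floor, where the enrichment understates the ratio of IP to input. The lists held 9246 to 10407 peaks, with a median enrichment of 5.08 to 5.64 in wild type at 39 DPA and 5.02 to 5.62 at 42 DPA. In Cnr the medians were 7.15, 5.78 and 7.67 in replicates 1, 2 and 3, so replicate 2 stood near the wild type and the others above it. Fewer cells with a transcript and less of it per cell cannot be told apart in pericarp RNA. A gene without a peak may be unmethylated, weakly methylated or little expressed, and the lists do not tell these apart, nor do they allow a check of tissue or genotype by marker genes.

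None of the 9 lists held a peak in *LIN5*, *LIN6*, the invertase inhibitor or *SUS1*. Of the genes that act in the cleavage of sucrose, the vacuolar invertase and *SUS3* had a peak, and both lacked it in 1 group. The vacuolar invertase had a peak in 6 of 6 wild-type lists and in 0 of 3 Cnr lists, a pattern shared by 148 of 11176 genes (1.32%). *SUS3* had a peak in 0 of 3 lists at 39 DPA, 2 of 3 at 42 DPA and 3 of 3 in Cnr, and 68 genes (0.608%) had at least that many in the later groups and none at 39 DPA. *SPS*, *AgpL1* and *AgpS1*, which act in the synthesis of sucrose and starch, had a peak in all 9 lists, as did 8224 genes (73.6%). With 3 lists against 3 the exact two-sided permutation test gives no p under 0.1, so presence was not tested.

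**Figure D1:**
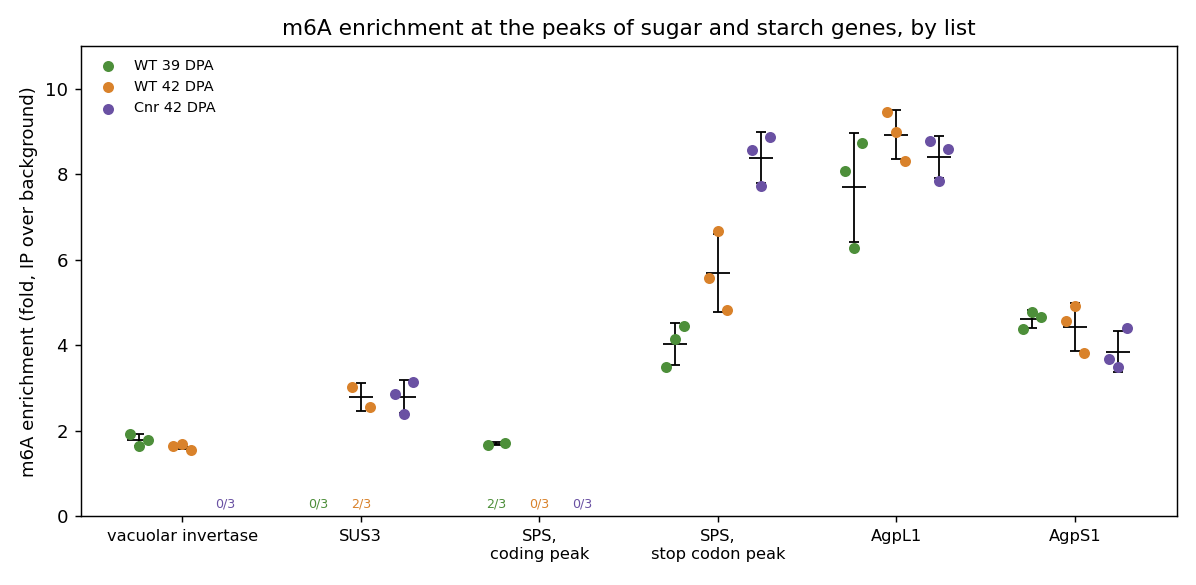
m6A enrichment (fold, linear axis) of each member peak in each list. Points are replicates, bars give the mean and SD of the replicates with a peak, and a fraction such as 0/3 counts the lists with a peak where fewer than 3 had one. The groups of *SPS* stand in steps from 39 DPA to 42 DPA to Cnr, whereas *AgpL1* and *AgpS1* overlap between all groups.

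The peaks lay in different parts of the transcripts. *SPS*, *SUS3* and *AgpS1* had their constant or only peak over the end of the coding sequence, from the last exon or intron into the 3′ UTR, where 63.9% ± 1.33 (SD, n = 9 lists) of all peaks in genes lay. The *AgpL1* peak began within the 3′ UTR, as 21.5% ± 1.67 of peaks did. The vacuolar invertase peak lay within the coding sequence, as 6.13% ± 1.85 of peaks did, and *SPS* had a second, weak peak there. Peaks within the coding sequence had the lowest median enrichment of the 5 parts of a gene, 2.20 against 6.85 over the end of the coding sequence.

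The vacuolar invertase carries the deposited term beta-fructofuranosidase activity. Its peak was at chr3:55280603-55280851 of build SL3.0, on exon 3 of a gene at 55279169 to 55283499 on the minus strand. The summit lay 1554 to 1580 bp from the annotated 3′ end of this gene of 4331 bp. The enrichment was 1.93, 1.64 and 1.78 in replicates 1, 2 and 3 at 39 DPA, and 1.65, 1.70 and 1.56 at 42 DPA. The stages overlapped, and all these values were low, between the 2.85 and 7.14 percentile of their lists. The input level was 28.6, 28.2 and 28.1 at 39 DPA and 71.2, 73.9 and 70.4 at 42 DPA. The stages were far apart in the input, where this transcript was above 99.6% of the summits of every wild-type list. The IP signal was 55.2, 46.4 and 50.0 at 39 DPA and 117, 125 and 110 at 42 DPA. IP signal and input level were thus both lower at 39 DPA, by similar factors, with a log2 difference to 42 DPA of −1.22 in IP signal and −1.34 in input level (exact permutation p = 0.1 each, the smallest possible). The enrichment differed by a log2 of 0.12 (SE 0.14, adjusted p = 0.62, limma). The absence of the peak from the Cnr lists came without a value for the input there, so less methylation and less transcript cannot be told apart.

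*SUS3*, a sucrose synthase by its deposited term, had its peak at chr7:56098920-56099219. The gene lies at 56098858 to 56104538 on the minus strand, and the summit was 210 to 237 bp from its annotated 3′ end. The enrichment was 3.02 in replicate 1 and 2.57 in replicate 3 at 42 DPA, with no peak in replicate 2. In Cnr it was 2.86, 2.38 and 3.15. The values of the 2 groups overlapped. The input level was 1.91 and 1.95 in the 2 wild-type lists with a peak and 3.19, 3.22 and 3.12 in Cnr, without overlap. The IP signal was likewise lower in wild type, at 5.81 and 5.03, than in Cnr, at 9.14, 7.70 and 9.88. Without wild-type replicate 2, the enrichment of *SUS3* in Cnr differed from wild type by a log2 of −0.0037 (SE 0.20, adjusted p = 0.99, limma on 3 against 2 lists). With the missing list set to its lowest enrichment instead, the difference was 0.41 (SE 0.32, adjusted p = 0.318, limma), a value that rests on 1 imputed list. At 39 DPA no list gave a measured value.

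**Figure D2:**
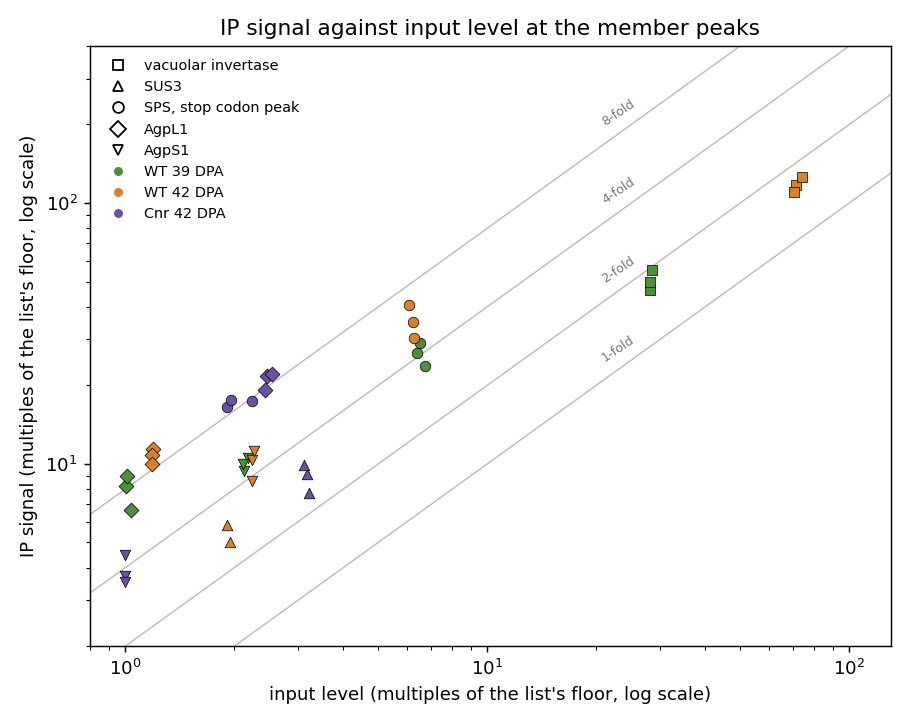
IP signal against input level at the member peaks, both as multiples of the floor of the list on log axes. Each symbol is 1 list and grey lines mark equal ratios. The second *SPS* peak is left out. The vacuolar invertase and *AgpL1* move along the lines between groups, while *SPS* in Cnr moves to a lower input level at a higher ratio, and *AgpS1* in Cnr lies at the floor.

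*SPS* had its main peak at chr7:2447173-2447725, close to the 3′ end of a gene at 2438889 to 2447778 on the plus strand, with the summit 361 to 408 bp from that end. The deposited term for the gene is sucrose synthase activity, and the name *SPS* is that of the gene list. The enrichment was 3.50, 4.16 and 4.46 at 39 DPA, 5.56, 6.67 and 4.84 at 42 DPA, and 8.57, 7.73 and 8.87 in Cnr. The 3 groups did not overlap and stood in the order 39 DPA, 42 DPA, Cnr. Of 7836 regions with a peak in all 9 lists, 2.21% stood in this order without overlap. At 39 DPA the enrichment was 0.713 times that at 42 DPA (log2 −0.49, SE 0.14, adjusted p = 0.00553, limma), and 10% of regions were lower at 39 DPA without overlap. In Cnr it was 1.49 times that at 42 DPA (log2 0.57, SE 0.17, adjusted p = 0.00347, limma), and 48.2% of regions were higher in Cnr without overlap. Neither difference reached the 1.5-fold that a call required.

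The counts behind the *SPS* enrichment moved differently in the 2 comparisons. The IP signal was 23.7, 26.7 and 29.1 at 39 DPA, 34.9, 40.7 and 30.4 at 42 DPA, and 16.5, 17.5 and 17.5 in Cnr. Wild-type fruit at 42 DPA thus had the highest IP signal, and Cnr, with the highest enrichment, had the lowest. The input level was 6.75, 6.40 and 6.51 at 39 DPA and 6.25, 6.09 and 6.27 at 42 DPA, a log2 difference of 0.08 without overlap. In Cnr it was 1.91, 2.24 and 1.95, or 0.328 times the wild-type level at 42 DPA (exact permutation p = 0.1, the smallest possible). The higher enrichment in Cnr hence came with an IP signal that was 0.490 times that of wild type and a background that was lower still. Among 3701 regions above the floor in all 9 lists, 6.32% were higher in enrichment and lower in both IP signal and input level in Cnr without overlap. The input levels of the 2 groups failed to overlap in 84.5% of 3940 regions of that comparison, and in 82.4% of 4501 regions between the stages, so such a separation is common.

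The second *SPS* peak, at chr7:2441621-2441812 from intron 2 into exon 3, was in the lists of 39 DPA replicates 1 and 3 alone. Its enrichment was 1.68 and 1.73 at an input level of 4.26 and 4.29. Like the vacuolar invertase peak it stood at the bottom of its lists, at the 3.63 and 3.46 percentile.

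*AgpL1*, the large subunit, had its peak at chr1:96550100-96550423. The same stretch was annotated to Solyc01g109780 (last exon) and Solyc01g109795 (exon 1 to intron 2), and only 72 of 11393 regions in genes (0.632%) were assigned to 3 or more genes. The library kit does not mark strand, so the reads of these genes cannot be told apart. The enrichment was 8.07, 6.27 and 8.74 at 39 DPA, 9.46, 8.99 and 8.32 at 42 DPA, and 8.77, 7.84 and 8.58 in Cnr. Within each wild-type list *AgpL1* had the highest enrichment of the members, and all 3 groups overlapped. The input level was 1.004, 1.041 and 1.009 at 39 DPA, hardly above the floor, 1.19 in each replicate at 42 DPA, and 2.47, 2.44 and 2.55 in Cnr. In Cnr it was 2.09 times the wild-type level at 42 DPA, without overlap (exact permutation p = 0.1, the smallest possible). The IP signal was 8.24, 6.63 and 8.97 at 39 DPA, 11.4, 10.9 and 10.004 at 42 DPA, and 21.8, 19.3 and 22.0 in Cnr, again without overlap. The enrichment differed from that at 42 DPA by a log2 of −0.23 at 39 DPA (SE 0.14, adjusted p = 0.293, limma) and −0.09 in Cnr (SE 0.17, adjusted p = 0.683, limma). Higher IP signal and input level in Cnr with overlapping enrichment were found in 21.4% of the regions above the floor.

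*AgpS1*, the small subunit, had its peak at chr7:64119841-64120181. The gene lies at 64118890 to 64124421 on the minus strand, and the summit was 1109 to 1134 bp from its annotated 3′ end. The enrichment was 4.38, 4.79 and 4.66 at 39 DPA, 4.58, 4.92 and 3.82 at 42 DPA, and 3.67, 3.48 and 4.40 in Cnr, with overlap between all groups. The IP signal was 9.37, 10.5 and 9.96 at 39 DPA, 10.3, 11.2 and 8.61 at 42 DPA, and 3.73, 3.54 and 4.48 in Cnr. The stages overlapped and Cnr was below both. The input level was 2.12, 2.18 and 2.12 at 39 DPA, 2.24, 2.27 and 2.24 at 42 DPA, and on the floor in all 3 Cnr lists. It was therefore at least 2.24-fold lower in Cnr, counted from the lowest wild-type list at 42 DPA to the floor of each Cnr list. Of regions with a peak in all 9 lists, 3.47% were above the floor in all wild-type lists and on it in all Cnr lists. The enrichment differed from that at 42 DPA by a log2 of 0.06 at 39 DPA (SE 0.14, adjusted p = 0.83, limma) and −0.20 in Cnr (SE 0.17, adjusted p = 0.32, limma). The Cnr values are understated by the floor, by an amount that cannot be read from the lists.

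The regions annotated to the 2 subunits of ADP-glucose pyrophosphorylase were thus opposite in Cnr in both counts. The *AgpL1* region had a higher IP signal in Cnr, by a log2 of 0.96, and that of *AgpS1* a lower one, by −1.36. Since the *AgpL1* region is shared with other genes on reads without strand, its rise cannot be assigned to *AgpL1*. Called by the same thresholds on the IP signal, 31.9% of regions were higher in Cnr and 5.92% lower. *SPS* fell by 1.03 on the log2 scale in the IP signal and was called with *AgpS1* among the lower regions. Between the stages the vacuolar invertase was called lower in IP signal at 39 DPA, as 4.57% of regions were.

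The peaks were also compared in width. The *AgpS1* peak was 315 to 333 bp wide in the 6 wild-type lists and 222, 222 and 232 bp in Cnr, without overlap (exact permutation p = 0.1 against 42 DPA, the smallest possible). Of all regions, 11.2% were narrower in Cnr than in wild type at 42 DPA without overlap. The median width of all peaks was 324 to 339 bp in the 9 lists and was not lower in Cnr. The *SPS* peak was the widest, at 477, 480 and 473 bp at 39 DPA, 505, 551 and 496 bp at 42 DPA and 507, 529 and 501 bp in Cnr. The *AgpL1* peak was 290, 280 and 291 bp wide at 39 DPA, 297, 314 and 299 bp at 42 DPA and 317, 315 and 313 bp in Cnr. Both were narrower at 39 DPA than in either later group, while Cnr and wild type at 42 DPA overlapped, and 11.1% of all regions were narrower at 39 DPA than at 42 DPA without overlap. The vacuolar invertase and *SUS3* peaks were 207 to 258 bp wide and overlapped between the groups that had them.

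**Figure D3:**
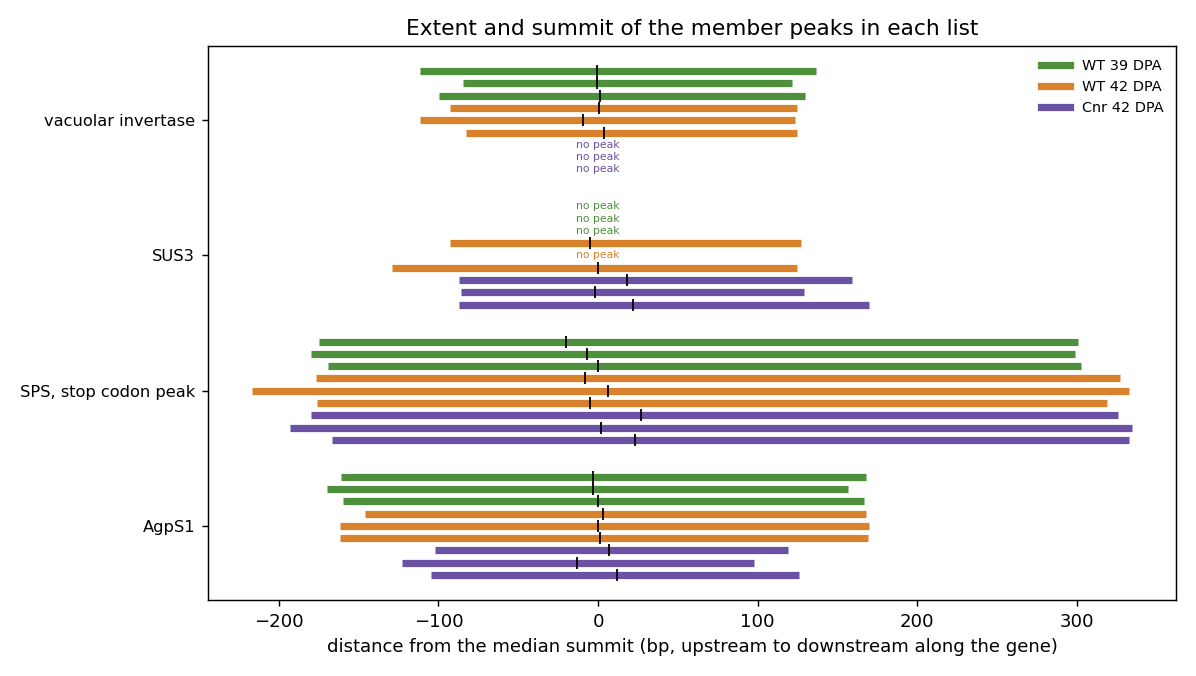
Extent of each peak (coloured bar) and its summit (black tick) in each list, as the distance in bp from the median summit of that peak, upstream to downstream along the gene. The Cnr bars of *AgpS1* are shorter on both sides than the wild-type bars, and lists without a peak are marked. *AgpL1*, whose strand is not given by the lists, and the second *SPS* peak are left out.

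The comparison of enrichment across all regions called none of the members. Between 39 DPA and 42 DPA, 0 of the 4 member regions with a peak in all 6 lists were called at 1.5-fold and an unadjusted p under 0.05 by limma, and 1 of them (*SPS*) had a p under 0.05. Of all 8533 regions 4.55% were called, and 27.4% had a p under 0.05. Between Cnr and wild type at 42 DPA, 0 of 3 were called, and again *SPS* had a p under 0.05, while 27.1% of 8007 regions were called and 56.8% had a p under 0.05. Groups did not overlap for 1 of 4 and 1 of 3 member regions, against 28.0% and 53.3% of all regions. The median log2 change of the members was −0.08 at 39 DPA and −0.09 in Cnr, beside 0.05 and 0.36 over all regions. Relative to that shift, after centring each list on its median, the log2 difference in Cnr was −0.48 for *AgpL1* (adjusted p = 0.00227, limma) and 0.18 for *SPS* (adjusted p = 0.131, limma), neither at 1.5-fold. For *AgpS1* it was −0.59, past 1.5-fold, but its Cnr enrichment is a lower bound because the background was on the floor, so no decrease is read from it. Both comparisons use the same wild-type lists at 42 DPA.

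Other genes of these pathways were taken from a list of 37, whose identifiers came from general knowledge. A peak in at least 1 list was found for 22 of them, in all 9 lists for 15, and 19 of the 22 carried a deposited function term. Of all genes with a peak in at least 1 list, 73.6% had one in all 9. The share of all annotated genes with a peak is not known here. The listed LIN7 and LIN8 invertases (Solyc09g010090 and Solyc10g083300) and a vacuolar-type invertase (Solyc08g079080) were among the 15 listed genes without a peak. The listed sucrose synthases Solyc09g098590, Solyc02g081300 and Solyc03g098290 had one in 9, 7 and 2 lists. Between the stages 0 of 16 genes tested were called, although 7 had a p under 0.05 by limma, beside 27.4% of all regions, and the median log2 change over their regions was 0.06. In Cnr 4 of 15 genes were called higher and 0 lower, beside 25.2% of all regions called higher, and the median log2 change was 0.44. That split did not hold under other settings, with 1 higher and 1 lower after centring and 1 higher and 3 lower on the IP signal. Of all regions, 5.42% were called higher and 7.93% lower after centring, and 31.9% higher and 5.92% lower on the IP signal.

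The 4 called genes carry different terms or none. Solyc03g065340, with phosphorylase activity, had an enrichment of 12.1, 10.3 and 13.8 in Cnr and 6.05, 5.57 and 4.88 in wild type at 42 DPA, a log2 change of 1.13 (SE 0.17, adjusted p = 2.23e-09, limma). Solyc02g091490, a kinase with the term ribokinase activity, had 12.2, 9.46 and 10.9 in Cnr and 5.74, 6.45 and 4.66 in wild type (log2 0.96, adjusted p = 5.34e-07, limma). Solyc03g083090, entered in the list as a soluble starch synthase but without a deposited term, had 8.80, 7.47 and 9.48 against 5.23, 5.72 and 4.46 (log2 0.74, adjusted p = 0.000124, limma), in a region shared with Solyc03g083095. Solyc06g066440, with hexokinase activity, had 4.44, 3.48 and 4.34 against 2.59, 3.11 and 2.20 (log2 0.64, adjusted p = 0.000965, limma), with the input on the floor in all 6 lists. Cnr was above wild type in every list for these 4 genes, which the call on these same values favours. Of all regions, 48.2% were higher in Cnr without overlap. The mean input level was lower in Cnr for the 3 above the floor. It was 1.27 against 2.41 for Solyc03g065340, 1.32 against 4.07 for Solyc02g091490 and 2.39 against 8.73 for Solyc03g083090. *SPS* and some genes of the list that were not called went the same way, while others did not. Of 3940 regions above the floor, 44.6% had a lower input level in Cnr without overlap. The enrichment is a ratio to the input, so picking genes by enrichment favours a lower input. The part of the input in the enrichment changes of the 4 genes was not tested.

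**Figure D4:**
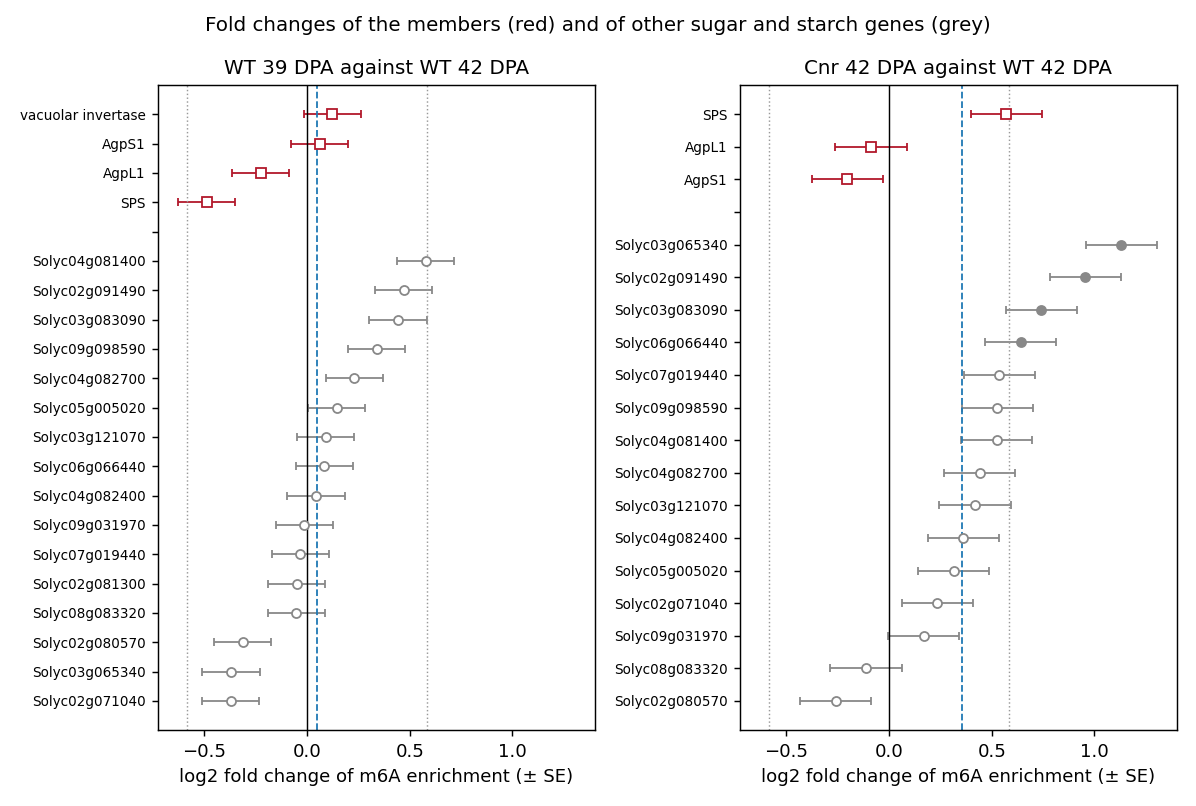
log2 fold change of m6A enrichment with its limma standard error, for the members (red squares) and other sugar and starch genes (grey circles), at 39 DPA (left) and in Cnr (right), each against wild type at 42 DPA. Filled symbols were called, dotted lines mark 1.5-fold, and the dashed blue line marks the median of all regions. No member is filled, and 4 grey genes are filled in Cnr.

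The regions of other genes whose log2 enrichment over the 9 lists was most like that of a member were looked up as a description. For *SPS* they were in Solyc09g065020 (Pearson r = 0.99) and Solyc03g098460 (r = 0.98), and 598 of 7601 regions had an r above 0.9. For *AgpL1* they were in Solyc11g072540 and Solyc08g062820 (r = 0.94 each), and 6 regions were above 0.9. For *AgpS1* they were in Solyc12g096390 (r = 0.94) and Solyc07g017220 (r = 0.93), and 13 regions were above 0.9. The 9 points share their libraries and fall in 3 groups.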

How the data were processed

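Poly(A) RNA from pericarp was profiled in 18 libraries, an IP and an input library for each of the 9 replicates, which the labels name as separate samples. Per the labels, the authors checked reads with FastQC 0.11.7 and trimmed them with cutadapt 1.16 and Trimmomatic 0.30. They aligned them to tomato build SL3.0 with BWA, kept uniquely mapped reads, called peaks in each IP library against its input with MACS, and annotated genes with PeakAnnotator. The deposited fold enrichment is a ratio computed by the authors with MACS, and the deposited −log10 p-value and −log10 q-value come from the same Poisson model. The −log10 columns of 2 lists had no readable name and were identified by position. Starts are given 1 above the deposited ones, which count from 0. Read depth is not in the lists, and the floor in fragments stands in for it.

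IP fragments and background were solved from the fold enrichment and p-value. IP numbers were whole within 0.1 for 99.7% or more of the summits of each list. MACS takes the background from windows around a summit, so the input level is not that of the peak alone. A background within 0.1 fragments of the most frequent one was taken as on the floor. Peaks sharing at least 1 bp over the 9 lists were merged, and the highest summit per list was used. Regions with a peak in all 6 lists of a comparison were tested across all regions with limma 3.58.1 in R 4.3.3 on log2 enrichment with BH adjustment, in place of the study's own differential method, which needs the reads. A region was called at 1.5-fold and a two-sided p under 0.05. Single values were compared by exact two-sided permutation tests in scipy 1.17.1 under Python 3.11.15. The recovery of the counts and the limma fit were tested on simulated data. Same-numbered replicates of Cnr and wild type at 42 DPA deviated together from their group means (Pearson r of 0.184, 0.442 and 0.340 over 8007 regions). Cnr replicate 1 with wild-type replicate 3 gave 0.189, however, and Cnr replicate 3 with wild-type replicate 1 gave 0.231. Pairing by number is thus not shown for replicates 1 and 3. The labels give no shared batch, so a block by replicate number was fitted only as an alternative.

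By rule, the genes named are all members, the called genes of the pathway list, genes sharing a member's region, and the 2 regions most like each member region present in all 9 lists. LIN7, LIN8, the other listed invertase, the listed sucrose synthases and Solyc03g083095, which shares a called gene's region, were added after their values were seen. The members and lists were chosen with earlier results of these data known. No gene descriptions or genome sequence of this build were used here, so the pathway list was not extended by description and no sequence is shown. Alternatives varied merging, peak thresholds, centring, summits, missing peaks, the block, the signal tested and the replicates used. The restriction to regions above the floor was added after seeing the data.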

Additional observations from a re-analysis of the deposited data

How the results depend on the processing

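Of 103 alternative values for the 7 member results, each a region in 1 comparison, 93 kept their direction and their side of the threshold. Many of them could not move, so this count is no measure of stability. Merging, the peak thresholds, missing peaks, the block and the restriction to regions above the floor left each log2 change of these regions as it was. *AgpS1* at 39 DPA went from a log2 of 0.06 to −0.0071 on the IP signal, and ranged from −0.0431 (without wild-type replicate 3 at 42 DPA) to 0.139 with 1 replicate left out. On the IP signal the vacuolar invertase went to −1.22 at 39 DPA, and in Cnr *AgpL1* went to 0.96 and *SPS* to −1.03, because the background is then left out. *SPS* passed 1.5-fold at 39 DPA without wild-type replicate 3 at 42 DPA (−0.60), and in Cnr without wild-type replicate 2 (0.69) or Cnr replicate 2 (0.63). Its adjusted p at 39 DPA (limma) rose to 0.0905 without replicate 1 at 39 DPA and to 0.0729 without wild-type replicate 2 at 42 DPA. With missing peaks at the lowest value it was 0.1105 (limma). The replicate block moved no member's call and kept the counts at 388 regions between the stages and 2167 in Cnr, with 0 and 4 genes of the pathway list. Between the stages the same-numbered replicates had an r of 0.227, 0.336 and 0.0840. Replicate 3 at 39 DPA with replicate 1 at 42 DPA gave 0.167, however, so the numbers are not shown to pair throughout. With missing peaks at the lowest value 1389 regions were called between the stages and 4111 in Cnr, with 2 and 8 genes of the pathway list. On the IP signal 848 regions and 3 pathway genes were called between the stages. In Cnr, centring left 1069 regions, 434 higher and 635 lower against 2014 and 153 without it, and 2 pathway genes, 1 higher and 1 lower against 4 and 0. On the IP signal 4 pathway genes were called in Cnr, 1 higher and 3 lower. Centring also changed the split between the stages, from 256 higher and 132 lower to 176 and 185. Regions above the floor gave 98 and 703 calls. Leaving out 1 replicate gave 371 to 490 calls between the stages and 1673 to 3143 in Cnr, and 0 to 1 and 3 to 7 pathway genes. The 7 came without wild-type or Cnr replicate 2. A peak with an enrichment of at least 2 was found for 4 of 9 members, without the vacuolar invertase, and with a q under 0.01 for 5.

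In the main fits the standard errors of limma were alike for regions of unlike spread, so those p-values rest on a spread pooled over all regions. After centring, and with missing peaks at the lowest value, they differed by region. The centred values in Cnr had a standard error of 0.083 for *AgpL1* and 0.090 for *SPS*. Regions lacking a peak in a list were tested only with imputed values or without that list. With missing peaks at the lowest value, *SUS3* passed both thresholds at 39 DPA (log2 −0.86, unadjusted p = 0.0269, adjusted p = 0.1496, limma) and the vacuolar invertase in Cnr did not reach 1.5-fold (−0.50), but all 3 values of the group without a peak are then imputed. The 3 replicates per group bound what the permutation tests can show.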
